A study of Homo sapiens with 8 samples.

Results

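The class I histone deacetylases HDAC1, HDAC2 and HDAC3, the class IIa deacetylases HDAC4, HDAC5, HDAC7 and HDAC9, and the MEF2 transcription factors MEF2A, MEF2C and MEF2D were followed in DU145 prostate carcinoma cells with and without introduced SOX11. These 10 genes were taken by symbol from a table of 32066 genes, and all 10 were found. The set was chosen by gene family with the SOX11-minus-control differences of these same libraries already known, so those differences are given below as a description, with no p-value for any of the 10. RNA was sequenced from 8 libraries, all of DU145, an established epithelial line that came from a brain metastasis of a prostate carcinoma. One group of 4 was labelled control and the other group of 4 SOX11 overexpression, and both were grown in the same serum-containing medium. The labels do not name the vector, any empty-vector treatment or the number of clones, and they do not say whether the 4 libraries of a group came from separate cultures. The spread between them may therefore be technical.

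Class I deacetylases are nuclear enzymes that remove acetyl groups from histone tails. HDAC1 and HDAC2 work inside the NuRD, SIN3, CoREST and MiDAC corepressor complexes, and HDAC3 inside the NCoR complex. Class IIa deacetylases have little deacetylase activity of their own; they bind MEF2 proteins on DNA and bring the NCoR complex with HDAC3 to them. Kinases of the CaMK, PKD and SIK families phosphorylate class IIa proteins, which are then bound by 14-3-3 proteins and held in the cytoplasm, so that MEF2 can activate its targets. MEF2 factors are best known in muscle, neurons, endothelium and lymphocytes.

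Promoter sequences were taken from RefSeq (GRCh38.p14, 250 bases before to 50 after each annotated start). They were found for 9 of the 10 genes (all but HDAC5) in 25 windows, since some genes have several starts. Both strands were searched for the MEF2 consensus and for the core SOX motif, written as ACAAAG or ACAATG. The MEF2 consensus occurred in 3 of the 25 windows, 1 each of HDAC9, MEF2A and MEF2C, and in 3.00% of all 34943 windows. These 3 genes each have several windows, as HDAC4 does, and nothing is read from that count. Those 3 matches are shown with capitals on the match, because they put a MEF2-type sequence beside a deacetylase that binds MEF2 and beside 2 of the MEF2 genes. Each reads as a match on both strands and is printed 5′ to 3′ on the strand of its gene.
HDAC9, chr7:18086797-18086826, plus strand: acttccctccccaagaagtgCTATTTTTAG
MEF2A, chr15:99565951-99565980, plus strand: ggcttgtctcCTAAAAATAGccccggtgtg
MEF2C, chr5:88824500-88824529, minus strand: atattccataTTATTTTTAAggtgttctca
The first base of the match lay 8 bases before the start in HDAC9, 23 in MEF2A and 175 in MEF2C. A match is a sequence only and no binding was measured.

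The SOX core occurred in 8 of the 25 windows, belonging to HDAC7, HDAC9, MEF2A and MEF2C, and in 24.5% of all windows. The HDAC9 site at chr7:18495632-18495661 was counted in both of the overlapping windows that start at 18495460 and 18495499. The windows are thus not all separate, and nothing is read from their count. HDAC7 is shown because it was the only one of these 4 genes that the fit across all genes called with all 8 libraries included. Its match is on the opposite strand, 59 bases before the start.
HDAC7, chr12:47819945-47819974, minus strand: agcatttccttcCATTGTcatcctacccgg
The windows of HDAC2 and MEF2D, which were also called, held no match to either motif, which says only that these letters are not in those 300 bases.

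The labels were checked first. SOX11 had 0 counts in every control library and 303 to 317 counts in the SOX11 libraries. Total counts were 14641250 to 18706095 per library. Of 6 general epithelial markers all were tested, and their summed level was 1503 to 1766 CPM in control and 1208 to 1216 in SOX11 libraries. Keratins made up most of that sum. Control and SOX11 means were 840 and 590 CPM for KRT8, 543 and 404 for KRT18, and 195 and 121 for KRT19. EPCAM was at 44.6 and 47.7 CPM, CDH1 at 42.1 and 38.8, and CLDN4 at 4.86 and 9.63. The fit described below called 1 of these 6 markers higher and 3 lower. CPM are gene counts scaled to library size with TMM, a correction for library composition. One library stood apart in luminal prostate markers. Over all genes, SOX11 replicate 2 differed most from the other SOX11 libraries, as given under processing. In SOX11 replicate 1, the luminal prostate genes KLK3, KLK2, TMPRSS2 and FOLH1 had 387 counts together, against 0 to 3 in the other SOX11 libraries and 1 to 10 in the control libraries. Of 6 muscle markers 4 had a row in the table (not MYOD1 and MYH7), and their sum was 0.412 to 0.639 CPM in control and 0.365 to 0.740 in SOX11. Blood markers summed to at most 0.296 CPM (CD3E had no row), endothelial markers to at most 0.639 and fibroblast markers to at most 0.456 (DCN and LUM had no row). The table lists no gene with a count of 0 in all libraries. Of 4 neuronal markers, RBFOX3 and STMN2 had no row, and SNAP25 and SYT1 summed to 9.13 to 11.3 CPM in control and 9.90 to 12.8 in SOX11. The part of the lower epithelial sum, mostly of keratins, in the results was not tested. Each member's difference without SOX11 replicate 1 is given beside that with it.

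In this bulk RNA, 8 of the 10 genes had a positive log2 difference with SOX11, beside 50.3% of all tested genes. All 10 passed the filter on low counts, with at least 10 counts in all 8 libraries. A gene was called where the edgeR fit across all 15665 tested genes gave an adjusted p below 0.05. The fit called 4 members, HDAC2, HDAC5, HDAC7 and MEF2D, all higher, and 0 lower. Over all tested genes 20.0% were called, and 10.3% were called higher. The median log2 difference was 0.11 over the 10 genes and 0.0011 over all tested genes. In 3 members, HDAC2, HDAC5 and MEF2D, every SOX11 library was above every control library, and over all tested genes 10.6% showed this (21.1% in either direction). Since the members were picked with this contrast known, nothing is read from these shares. Without SOX11 replicate 1 the fit also called 4 members, with HDAC9 in place of HDAC7. That fit called 2602 of 15829 tested genes, and nothing is read from its count of members either. A different number of cells expressing a gene and a different amount of RNA per cell cannot be told apart in such data.

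**Figure D1:**
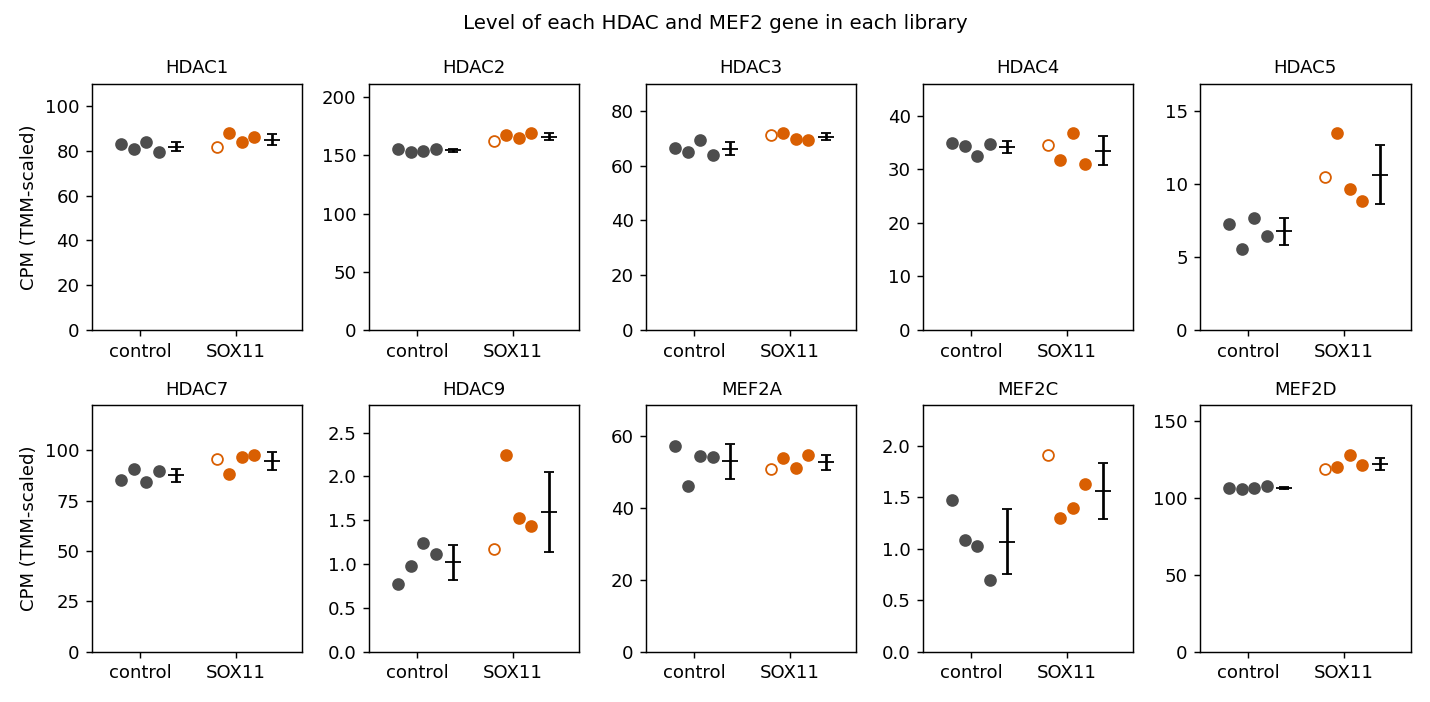
Level of each gene in each library, in TMM-scaled CPM on axes that start at 0 (grey points, control; orange points, SOX11; open orange point, SOX11 replicate 1; bar, mean ± SD of 4 libraries). HDAC2, HDAC5 and MEF2D show no overlap between the groups, while HDAC9 and MEF2C lie below 2.5 CPM.

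HDAC1 is a catalytic subunit of several corepressor complexes (ENSG00000116478, chromosome 1, 32292086 to 32333635, plus strand; all positions are GRCh38 from GENCODE 29). Its control libraries 1 to 4 held 83.1, 80.8, 84.0 and 79.5 CPM. The SOX11 libraries held 81.8, 88.0, 84.1 and 86.2 CPM. The groups overlapped, and the log2 difference was 0.055 ± 0.039 (SE), or 0.071 ± 0.040 without SOX11 replicate 1. Its processed pseudogenes HDAC1P1 and HDAC1P2 had at most 1 and 6 counts in any library.

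HDAC2, the close paralogue of HDAC1, had the highest count of the set, from 2238 to 2837 per library (ENSG00000196591, chromosome 6, 113933028 to 114011308, minus strand). Control libraries were tightly placed at 156, 153, 154 and 155 CPM. With SOX11 the values were 162, 168, 165 and 169 CPM, all above every control. The mean went from 154 ± 1.19 to 166 ± 3.05 CPM (SD, n = 4 per group), a log2 difference of 0.11 ± 0.032. This is a difference of 7.66% and was called in the fit, also without SOX11 replicate 1 (0.12 ± 0.033). The call ended without control replicate 2 (0.10) or SOX11 replicate 4 (0.095), and without a filter on low counts (0.098), with the size little moved.

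HDAC3 is the deacetylase of the NCoR complex (ENSG00000171720, chromosome 5, 141620876 to 141636870, minus strand). It held 66.5, 64.9, 69.4 and 63.8 CPM in control and 71.1, 71.9, 69.8 and 69.3 CPM with SOX11. Only control replicate 3 reached the SOX11 range, at its lower edge. The log2 difference of 0.094 ± 0.041 (0.089 ± 0.044 without SOX11 replicate 1) was close in size to that of HDAC2 but was not called. Summed per length, the class I genes came to 44.9 ± 1.03 CPM per kb of exon in control and 47.4 ± 0.904 with SOX11, and these sums did not overlap. HDAC1 made up 46.0 ± 0.192% of that sum in control and 45.2 ± 0.594% with SOX11. These shares barely missed overlapping, with control replicate 4 at 45.735% and SOX11 replicate 2 at 45.686%. Overlap of sums, shares and ratios, here and below, has no rate over all genes beside it, and nothing is read from it. HDAC2 made up 22.2 ± 0.542% in control and 22.7 ± 0.269% with SOX11, and the ratio of HDAC2 to HDAC1 per kb was 0.484 ± 0.0129 and 0.501 ± 0.00856, with overlap in both measures.

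Among class IIa genes HDAC4, which is known from chondrocyte and muscle development, showed little difference (ENSG00000068024, chromosome 2, 239048168 to 239401654, minus strand). Its levels were 34.9, 34.4, 32.4 and 34.8 CPM in control and 34.5, 31.6, 36.8 and 31.1 CPM with SOX11. The SOX11 libraries spanned a wider range that enclosed the controls, and the log2 difference was -0.027 ± 0.057, or -0.042 ± 0.062 without SOX11 replicate 1. The 95% interval of the difference runs from -0.14 to 0.085.

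HDAC5, a calcium-responsive class IIa deacetylase of muscle and neurons, had the highest log2 difference of the 10 genes (ENSG00000108840, chromosome 17, 44076746 to 44123702, minus strand). The controls held 7.28, 5.57, 7.69 and 6.45 CPM. The SOX11 libraries held 10.5, 13.5, 9.67 and 8.86 CPM, with replicate 2 the highest and replicate 4 still above all controls. The mean went from 6.75 ± 0.940 to 10.6 ± 2.02 CPM, a log2 difference of 0.67 ± 0.12, or 1.59-fold. It was called in the main fit and in all 15 alternative fits, with a log2 difference of 0.68 without SOX11 replicate 1 and 0.53 without SOX11 replicate 2, the lowest of the 15. The ratio of HDAC5 to HDAC4 per kb of exon was 0.348 ± 0.0566 in control and 0.561 ± 0.128 with SOX11, again with no overlap between the groups.

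HDAC7, the class IIa member known from endothelium and thymocytes, was the most abundant class IIa gene (ENSG00000061273, chromosome 12, 47782722 to 47833132, minus strand). It stood at 85.2, 90.6, 84.3 and 89.7 CPM in control and at 95.8, 88.4, 96.5 and 97.8 CPM with SOX11. SOX11 replicate 2 lay inside the control range and the other SOX11 libraries above it. The log2 difference of 0.11 ± 0.040 only just passed the threshold. Its call ended without any 1 of control replicates 1, 3 and 4 or SOX11 replicates 1, 3 and 4 (log2 0.093 to 0.12, and 0.10 ± 0.044 without SOX11 replicate 1), and with RLE factors, DESeq2, limma-voom, the replicate block or no filter. An antisense gene, AC004466.1, shares 9.70% of its exon length, at 1.55 CPM in control and 2.18 with SOX11.

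HDAC9, which is known as both a partner and a target of MEF2, was low (ENSG00000048052, chromosome 7, 18086949 to 19002416, plus strand). It had 12, 18, 18 and 16 counts in control and 19, 38, 25 and 22 counts with SOX11. These correspond to 0.766, 0.974, 1.24 and 1.11 CPM against 1.17, 2.25, 1.52 and 1.43 CPM, with SOX11 replicate 1 inside the control range and replicate 2 well above the rest. The log2 difference of 0.65 ± 0.25 was not called. It was 0.77 ± 0.25 and called without SOX11 replicate 1, and 0.44 ± 0.26 and not called without SOX11 replicate 2. HDAC5 and HDAC9 were thus both highest in SOX11 replicate 2. So were HDAC1 (88.0 CPM) and HDAC3 (71.9 CPM), while HDAC7 (88.4 CPM) and MEF2C (1.30 CPM) were lowest of the SOX11 group there. No cause of this was tested.

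**Figure D2:**
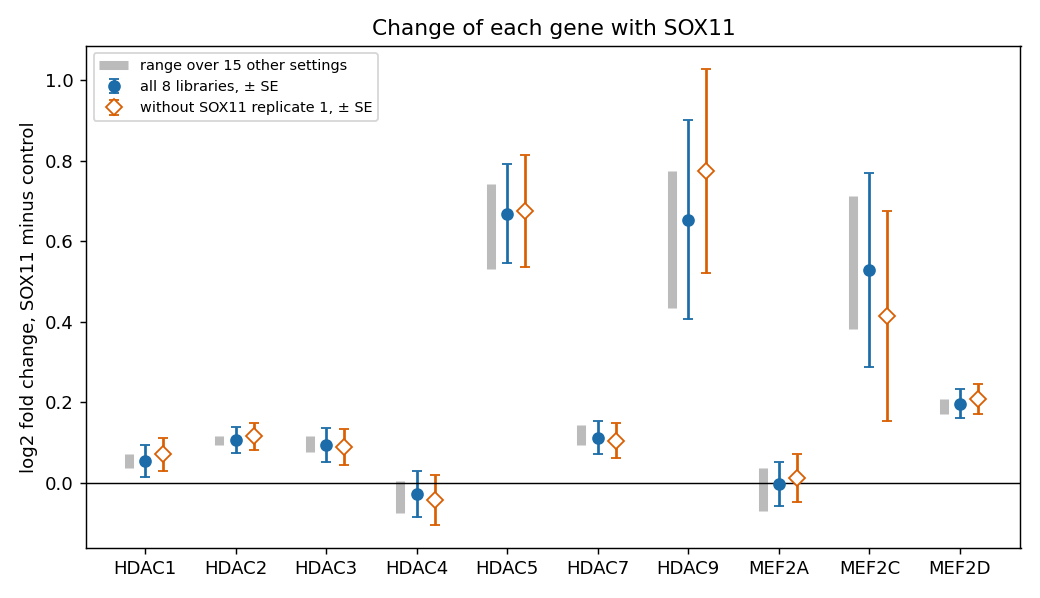
Log2 fold change, SOX11 minus control, of each gene with all 8 libraries (blue, ± SE), without SOX11 replicate 1 (open orange diamonds, ± SE) and as the range over the 15 alternative fits (grey bars). HDAC5 stays between 0.53 and 0.74 and MEF2D between 0.17 and 0.21, while the bars of HDAC4 and MEF2A span 0.

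Of the MEF2 genes, MEF2A is broadly expressed (ENSG00000068305, chromosome 15, 99565417 to 99716466, plus strand). Its control libraries held 57.0, 45.9, 54.4 and 54.1 CPM, with replicate 2 the lowest of all 8. The SOX11 libraries fell inside that range at 50.8, 53.8, 51.0 and 54.7 CPM. The log2 difference was -0.0032 ± 0.054, with a 95% interval from -0.11 to 0.10, and 0.011 ± 0.060 without SOX11 replicate 1. LYSMD4, on the opposite strand, shares 11.1% of its exon length and was at 14.2 CPM in control and 15.3 with SOX11.

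MEF2C, the form best known in heart, brain and B cells, was nearly as low as HDAC9 (ENSG00000081189, chromosome 5, 88717117 to 88904257, minus strand). It had 23, 20, 15 and 10 counts in control and 31, 22, 23 and 25 counts with SOX11. The CPM values were 1.47, 1.08, 1.03 and 0.693 against 1.91, 1.30, 1.40 and 1.63, so control replicate 1 overlapped the SOX11 group. The log2 difference of 0.53 ± 0.24 was not called in any of the 15 alternatives, where it ranged from 0.38 to 0.71, with 0.41 ± 0.26 without SOX11 replicate 1.

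MEF2D, a widely expressed member that class IIa deacetylases bind, had controls that lay very close together (ENSG00000116604, chromosome 1, 156463727 to 156500828, minus strand). They held 106, 106, 106 and 107 CPM. With SOX11 it held 119, 119.7, 128 and 121 CPM, all above the controls. The mean went from 106 ± 0.796 to 122 ± 4.19 CPM, a log2 difference of 0.20 ± 0.036, or 14.6%. It was called in all 15 alternatives as well, at 0.21 without SOX11 replicate 1. The 3 MEF2 genes together held 24.3 ± 0.744 CPM per kb in control and 26.8 ± 0.614 with SOX11, without overlap. MEF2D made up 68.3 ± 1.98% of that sum in control and 71.1 ± 1.17% with SOX11, and these shares overlapped.

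Levels of different genes were compared per kb of annotated exon. In the control libraries the order was HDAC1 (20.7 CPM per kb), MEF2D (16.6), HDAC3 (14.3), HDAC2 (9.98), HDAC7 (8.81), MEF2A (7.63), HDAC4 (2.55), HDAC5 (0.886), MEF2C (0.0909) and HDAC9 (0.0607). Each neighbouring pair was separated in all 4 control libraries except MEF2C and HDAC9, whose ranges overlapped. HDAC7 made up 71.6 ± 1.22% of the class IIa sum, HDAC4 20.7 ± 0.496%, HDAC5 7.21 ± 1.14% and HDAC9 0.494 ± 0.101%. With SOX11 the HDAC5 share was 10.3 ± 2.15% and the HDAC4 share 18.5 ± 1.12%, and neither overlapped its control values. A share also falls where other genes of the sum are higher, and the log2 difference of HDAC4 itself was -0.027. The class IIa sum was 12.3 ± 0.256 CPM per kb in control and 13.5 ± 0.291 with SOX11. The order in the upper part depends on the length used. The sums, shares and ratios per kb of all 3 families depend on it too, and are given for exon unions only. Per kb of longest coding transcript, HDAC4 was at 3.80 and HDAC5 at 1.27 CPM in control, beside 21.4 for HDAC7. With that length, a choice made after seeing the data, the order ran HDAC1 (38.5), HDAC3 (33.8), HDAC7 (21.4), MEF2D (17.8) and HDAC2 (15.6). The lower 5 kept their places.

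**Figure D3:**
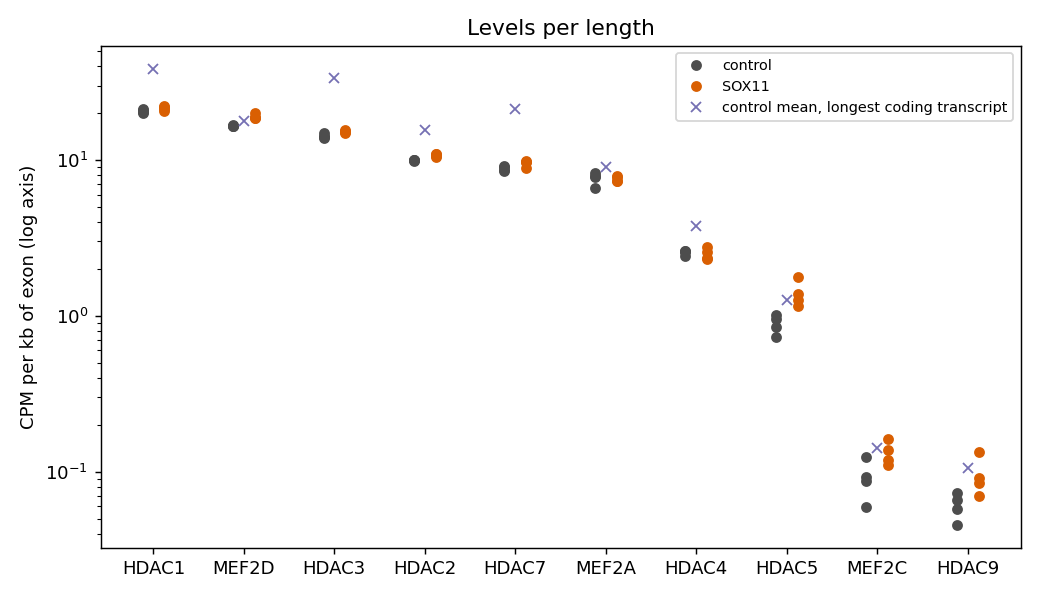
Level of each gene per kb of exon on a log axis, ordered by its control mean (grey points, 4 control libraries; orange points, 4 SOX11 libraries; crosses, control mean over the longest coding transcript). The control means of HDAC1 to MEF2A run from 7.63 to 20.7 CPM per kb of exon, and those of MEF2C and HDAC9 are below 0.1. Single libraries lie on both sides of these means.

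By the rule for naming genes of like pattern, log2 CPM profiles centred on each gene's mean were compared over the 8 libraries with those of 14382 other tested genes of at least 1 CPM. HEATR5A, PBXIP1 and THBS3 lay nearest to HDAC5, the member with the largest log2 difference, with a mean absolute distance of 0.094, 0.11 and 0.11 on the log2 scale. RHPN1 and ZNF865 lay nearest to HDAC4, the member with the lowest, at 0.021 and 0.026.

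The partners of these genes were read from 10 lists, which share a few genes and were drawn up with earlier results of these data known. Of 127 listed genes 113 were tested, and 21 were called higher and 9 lower by edgeR, 26.5% in all against 20.0% of all tested genes. Their median log2 difference was 0.028. Of these 30 called genes, 13 kept the call in all 15 alternatives. Adjusted p below are edgeR's over all tested genes, with n = 4 per group.

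Among the remaining deacetylases and MEF2B, 1 of 11 tested genes was called higher and 0 lower (median 0.066). The class I member HDAC8 was at 7.49 ± 0.376 CPM in control and 8.08 ± 0.507 with SOX11, and was not called. SIRT1, an NAD-dependent deacetylase, rose from 61.7 ± 3.08 to 67.1 ± 1.497 CPM (log2 0.12 ± 0.043, adjusted p = 0.04996). That call was at the threshold and ended in 12 of 15 alternatives, among them each library left out except control replicate 3 (adjusted p 0.0561 to 0.187).

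Of the complexes built on HDAC1 and HDAC2, NuRD, which joins a nucleosome remodeller to the deacetylases, had 2 of 13 higher and 1 lower (median 0.026). RBBP4, a histone-binding subunit shared with SIN3 and polycomb complexes, rose from 239.9 ± 3.38 to 279 ± 9.93 CPM (log2 0.22 ± 0.032, adjusted p = 6.61e-06). MBD2, which binds methylated DNA, fell from 75.2 ± 4.07 to 66.0 ± 2.99 CPM (log2 -0.19 ± 0.045, adjusted p = 0.00284). CHD5, a remodeller best known in neurons, rose from 0.857 ± 0.353 to 1.496 ± 0.327 CPM (log2 0.82 ± 0.27, adjusted p = 0.0300). The CHD5 call ended with DESeq2 and without control replicate 1, control replicate 2, SOX11 replicate 3 or SOX11 replicate 4 (adjusted p 0.0552 to 0.128 over those 4 fits). SIN3 subunits had 2 of 14 higher and 2 lower (median 0.0071), and 2 higher and 0 lower without SOX11 replicate 1. SINHCAF rose by 0.15 (adjusted p = 0.00878) and SAP18 by 0.12 (adjusted p = 0.0295), and BRMS1L fell by 0.16 on the log2 scale (adjusted p = 0.0228). These SIN3 calls were not stable. That of SINHCAF ended without SOX11 replicate 4 (adjusted p = 0.0559). That of SAP18 ended without control replicate 2 or 4 or SOX11 replicate 4 (0.0924 to 0.106) and with DESeq2, no filter or the replicate block, and that of BRMS1L without control replicate 3 or 4 or SOX11 replicate 1 or 4 (0.0619 to 0.0869).

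CoREST and MiDAC subunits had 6 of 13 higher and 1 lower (median 0.13), and the same counts without SOX11 replicate 1. RCOR2, a CoREST scaffold known from stem cells and neural progenitors, rose from 0.774 ± 0.222 to 2.20 ± 0.439 CPM (log2 1.46 ± 0.24, adjusted p = 3.84e-05). PHF21A, which reads unmethylated histone H3 in the LSD1 complex, rose from 33.4 ± 0.809 to 39.5 ± 0.911 CPM (log2 0.24 ± 0.050, adjusted p = 0.000613). ZMYM2, a zinc finger protein of that complex, rose by 0.16 on the log2 scale (adjusted p = 0.00333). These 3 calls held in all 15 alternatives. The list of NCoR subunits, the complex of HDAC3, had 2 of 5 higher and 0 lower (median 0.080). NCOR1, the corepressor scaffold, rose from 80.8 ± 4.57 to 89.7 ± 2.12 CPM (log2 0.15 ± 0.041, adjusted p = 0.00889). TBL1X, a scaffold-binding subunit, rose by 0.16 (adjusted p = 0.0122). The call of NCOR1 ended without control replicate 4 (adjusted p = 0.0519) and that of TBL1X without control replicate 3 (0.0604).

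**Figure D4:**
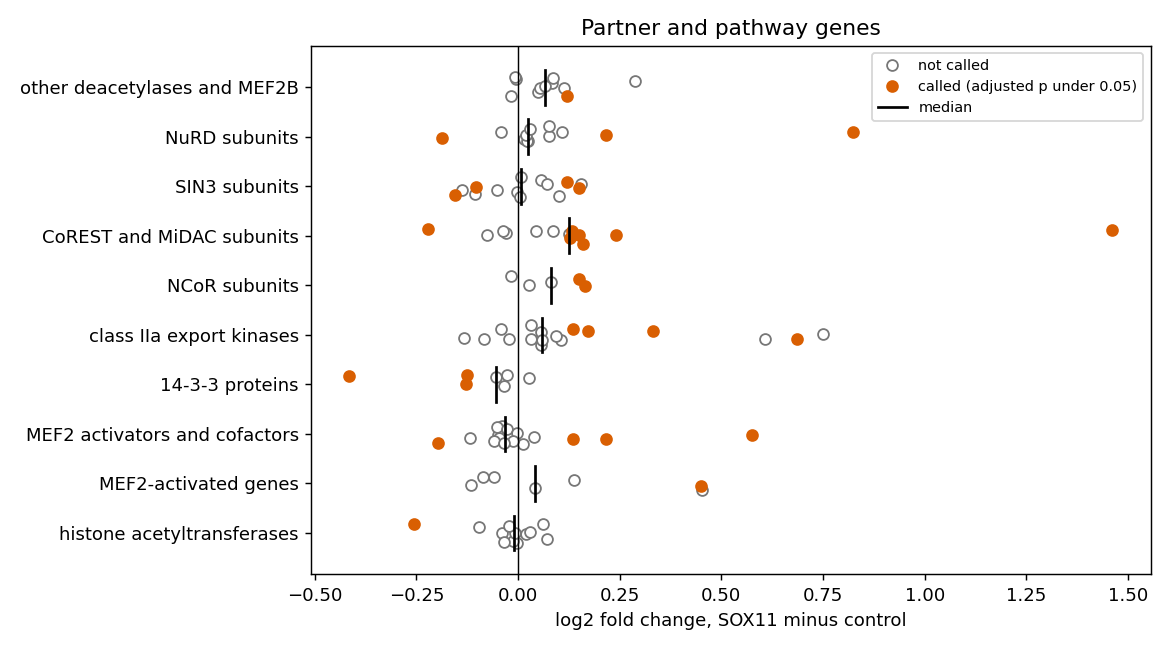
Log2 fold change, SOX11 minus control, of the tested genes in each of the 10 lists (filled, called at an adjusted p below 0.05; open, not called; black line, list median; vertical scatter has no meaning). The CoREST and MiDAC list has 6 genes called higher and 1 lower, and the 14-3-3 list has 3 called lower and 0 higher.

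Of the kinases that drive class IIa proteins out of the nucleus, 4 of 17 tested were called higher and 0 lower (median 0.058). PRKD3 rose from 57.5 ± 2.25 to 64.8 ± 3.32 CPM (log2 0.17 ± 0.046, adjusted p = 0.00647) and PRKD1 from 8.55 ± 0.835 to 10.8 ± 0.720 CPM (0.33 ± 0.093, adjusted p = 0.0101). Both encode protein kinase D forms, and both calls held in all 15 alternatives. The salt-inducible kinase gene SIK3 rose by 0.14 (adjusted p = 0.0178), a call that ended without control replicate 3 or SOX11 replicate 3 or 4 (adjusted p 0.0566 to 0.0945). The 14-3-3 genes had 3 of 7 lower and 0 higher (median -0.053), with the same 3 to 0 without SOX11 replicate 1. SFN, the epithelial 14-3-3 sigma, fell from 208 ± 8.69 to 156 ± 10.2 CPM (log2 -0.41 ± 0.041, adjusted p = 1.53e-08). YWHAB fell from 378 ± 4.57 to 346 ± 10.4 CPM (adjusted p = 0.00243) and YWHAH from 154 ± 0.682 to 141 ± 3.86 CPM (adjusted p = 0.00648). The calls of these 3 genes held in all 15 alternatives.

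MEF2 activators and cofactors had 3 of 16 higher and 1 lower (median -0.031). VGLL4, a TEAD and MEF2 cofactor, rose by 0.22 (adjusted p = 0.0134), and CABIN1, a calcineurin and MEF2 inhibitor, rose by 0.14 (adjusted p = 0.0232). The kinase gene MAP2K6, which acts upstream of p38, rose from 3.22 ± 0.405 to 4.77 ± 1.501 CPM (log2 0.57 ± 0.18, adjusted p = 0.0239). The VGLL4 call ended without control replicate 4 or SOX11 replicate 2 (adjusted p 0.0533 to 0.0638) and that of CABIN1 without control replicate 4 or SOX11 replicate 1 (0.0877 to 0.0973) and with DESeq2 or no filter. That of MAP2K6 ended without control replicate 2, 3 or 4 or SOX11 replicate 1 or 2 (0.0510 to 0.142), with a log2 difference of 0.34 without SOX11 replicate 2. Without SOX11 replicate 1 this list had 1 gene higher and 2 lower.

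Of 17 genes known to be activated by MEF2 in muscle, neurons, endothelium or T cells, 7 were tested, and the muscle genes CKM and MYOG, at most 0.0160 CPM in either group mean, were among the 10 that were not. The fit called 1 of the 7 higher and 0 lower (median 0.041). NR4A1, an orphan nuclear receptor gene and MEF2 target in T cells, rose from 22.2 ± 2.14 to 30.1 ± 2.05 CPM (log2 0.45 ± 0.067, adjusted p = 9.18e-06) and was called in all 15 alternatives. Histone acetyltransferases, the opposing enzymes, had 0 of 12 higher and 1 lower (median -0.0095). KAT2B, which encodes PCAF, fell from 20.7 ± 0.850 to 17.4 ± 1.94 CPM (log2 -0.26 ± 0.073, adjusted p = 0.0121). Its call ended without SOX11 replicate 1 (log2 -0.19, adjusted p = 0.0690), the library with the luminal transcripts, whose part in this was not tested.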

How the data were processed

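Per the submitters' processing notes, cutadapt, FastQC and STAR (version 2.7.0e) were used with the build GRCh38. How reads were counted, with which annotation and whether by strand, is not given in the sources used here. Thus reads of overlapping genes on opposite strands may not be separated, although the library kit keeps strand per the labels. The authors deposited raw counts per Ensembl gene, 1 column per library, with no normalization, and 0 columns were left without a sample. Symbols matched 32053 of 32066 identifiers. The members and gene lists were chosen with earlier results of these data known.

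From the counts, filterByExpr (minimum count 10) left 15665 genes. Genes were scaled by TMM and tested in edgeR 4.0.16 (R 4.3.3) by quasi-likelihood with robust dispersions and group as the only term, with Benjamini-Hochberg adjustment over all tested genes. The SE of a log2 fold change came from its coefficient and F statistic. The script was tested on simulated data with changes larger than that of any member, so the test does not cover calls of small differences. No 2 libraries agreed within sampling noise (chi-square per degree of freedom at least 1.39). Within the SOX11 group this value was 2.77 to 2.99 for pairs with replicate 2 and 1.39 to 2.32 for the other pairs. Within the control group it was 1.51 to 3.01. Exon lengths are unions of GENCODE 29 exons, which may differ from the authors' annotation. SOX core and MEF2 matches were searched in RefSeq promoter windows. In each list, up to 3 called genes with the smallest adjusted p were named. Other called genes are counted only. Some genes are not reported here and were left out of the lists and their counts after the values were seen. HDAC8 was named outside this rule, after its values were seen. The 15 alternatives are given in the closing section.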

Additional observations from a re-analysis of the deposited data

Results flagged for a closer look

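In SOX11 replicate 1 the summed level of the 4 luminal prostate markers KLK2, KLK3, TMPRSS2 and FOLH1 was 23.9 CPM, against 0 to 0.177 CPM in the other SOX11 libraries. The gap to the nearest library was 0.993 of the group's range, above Dixon's 95% critical value for 4 samples. Among the control libraries, replicate 4 was marked in the same way at 0.693 CPM, from 10 counts, against 0.0541 to 0.0687 CPM in the others (gap 0.977 of the range).

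MEF2D in control replicate 4, at 107.49 CPM, was also marked in this way, because the other 3 control libraries lay very close together (gap 0.836 of the range). All 4 lay from 105.76 to 107.49 CPM, below every SOX11 library. With 20 member groups examined, chance marks about 1 in 20.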

How the results depend on the processing

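The 15 alternatives were RLE and upper quartile factors, dropping the low-count filter or raising it to 1 CPM in 4 libraries, limma-voom (limma 3.58.1), DESeq2 1.42.0, a replicate block, and omission of each of the 8 libraries. HDAC5 and MEF2D were called in all 15, HDAC2 in 12, HDAC7 in 4, HDAC9 in 1, and the other members in 0. The number of members called, 4, was 2 with no filter and 2 to 4 with a library left out. Over all genes, 3112 of 32066 were called with no filter. With a library left out the calls ran from 2466 of 15861 (control replicate 2) to 3057 of 15930 (control replicate 1). HDAC4 had a positive difference without SOX11 replicate 2 or 4 (0.00070 and 0.0038), and its lowest value was -0.075, without SOX11 replicate 3. MEF2A was positive with upper quartile factors (0.0037) and limma-voom (0.0027), and from -0.071 to 0.036 with a library left out. Over all genes the count of calls ranged from 2407 (DESeq2) to 3128 (RLE factors), against 3130. List counts were within 1.5 times the reported count in 121 of 150 comparisons. Beyond that, SIN3 subunits ranged from 0 to 5 called against 4, class IIa export kinases from 2 to 6 against 4, MEF2 activators from 1 to 4 against 4, NCoR subunits from 1 to 2 against 2, MEF2-activated genes from 1 to 2 against 1, and acetyltransferases and remaining deacetylases from 0 to 1 against 1. Same-numbered libraries deviated from their group means with correlations of -0.068 to 0.11. These correlations alone cannot show whether same-numbered libraries were handled together. With the replicate block 2899 genes and 3 members were called, HDAC7 no longer among them (log2 0.11). HDAC9 and MEF2C had at most 38 counts in a library, and the SE of their log2 differences, 0.25 and 0.24, were the highest of the 10 genes.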
